A study of Homo sapiens with 6 samples.

Results

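The genes described here are 10 transcription factor genes of anterior neural tissue: the homeobox genes OTX1, OTX2, SIX3, LHX2, PAX6 and HESX1, and the POU class 3 genes POU3F1, POU3F2, POU3F3 and POU3F4. They were selected by name from the 59653 gene symbols of the count table. Of the 10, 6 had enough counts to be tested, and all 10 are accounted for below. The source is mRNA sequencing of PA1, an established human ovarian teratocarcinoma line whose genotype is labelled wildtype. The control group, with 3 libraries, received a negative control small interfering RNA (siRNA). The SOX2 siRNA group, also with 3 libraries, received siRNA against the transcription factor SOX2, for which the labels name 2 siRNAs without saying whether they were combined; its libraries are called SOX2 knockdown libraries. Both groups were transfected in adherent culture, moved after 24 h to plates coated to prevent attachment, and grown in suspension for another 72 h before RNA extraction. All libraries come from this 1 cell line, and nothing in the labels says whether the replicates were separate cultures, so p-values measure the spread between these libraries, which may be technical.

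In the embryo the anterior neural plate gives rise to the forebrain and the eyes. OTX2 and OTX1 set up the forebrain and midbrain, HESX1 protects forebrain identity, SIX3, LHX2 and PAX6 act in the eye field and the forebrain, and LHX2 also patterns the cerebral cortex. POU class 3 factors act in neural progenitors and in maturing neurons and glia; they bind DNA through a POU-specific domain and a POU homeodomain and can pair with SOX proteins of the SOX2 type on adjacent sites.

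After SOX2 siRNA, POU3F2 rose 2.93-fold, LHX2 and OTX2 fell to 70.5% and 66.8% of their control levels, and the other members were not called or had too few counts to test. By edgeR's quasi-likelihood test, adjusted over all genes, 3 of the 6 tested members were called at an adjusted p under 0.05, 1 higher and 2 lower. Over all 17592 tested genes, 28.2% were called, 14.8% higher and 13.4% lower, so calls are common in this comparison and 6 tested members are too few to set a share of them against that background. The median log2 fold change was -0.17 over the 6 tested members and -0.00085 over all tested genes. In these bulk libraries a smaller number of cells of a kind and less RNA per cell cannot be told apart.

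Total counts ranged from 25152313 to 32753184 per library, and 3 counts, taken as the least that can be told from none, equalled 0.0909 to 0.12 CPM (counts scaled by library size with the TMM method) in single libraries. SOX2 itself had 8093, 6647 and 7396 counts in the control libraries and 1564, 1776 and 1513 in the SOX2 knockdown libraries, so 20.5% of the control CPM remained (a log2 fold change of -2.28 with SE 0.0437, at a Benjamini-Hochberg adjusted p of 5.97e-16 by edgeR). Of 10 markers of the pluripotent line, 9 had enough counts to be tested, 4 were higher, 2 lower and 3 not called. Their summed level was 2779 to 2840 CPM in control and 2772 to 2837 CPM in SOX2 knockdown libraries. That sum holds opposite changes: PODXL was lower (log2 fold change -0.97) and LIN28A, LIN28B and DNMT3B were higher (0.70, 0.59 and 0.40). NANOG, a core pluripotency factor, was low in control libraries, at 0.820 ± 0.130 CPM, and fell to 0.216 ± 0.0425 CPM (SD, n = 3; log2 fold change -1.91, edgeR adjusted p = 3.08e-04), while TDGF1 had at most 3 counts in any library. Among 12 markers of blood, vessel, liver, muscle, glia and other cell types, HBB and OLIG2 had no counts, PTPRC and MYOD1 had at most 3, and SOX10 was higher after SOX2 siRNA (1.54). The vessel markers PECAM1 and CDH5 were lower (-0.55 and -0.71) and COL1A1 slightly higher (0.34, not called without control replicate 1 or without SOX2 siRNA replicate 3). All 12 summed to 366.1 to 413.2 CPM in control and 437.4 to 485.9 CPM after SOX2 siRNA. Most of that sum was COL1A1, with means of 281.9 CPM in control and 357.7 CPM after SOX2 siRNA.

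The promoters of POU3F2 and OTX2 are shown because these genes moved in opposite directions. Each is the stretch of 250 bases before the start site given by RefSeq on GRCh38.p14, and neither overlaps an exon of its gene in GENCODE 29. Capitals mark matches to CCAAT on either strand and, in POU3F2, to ATCAAAG, a sequence bound by TCF and LEF factors of the Wnt pathway. The POU3F2 window is chr6:98834324-98834573 (plus strand), and the OTX2 window, at the outer of its 2 start sites in RefSeq, is chr14:56810480-56810729 (minus strand).
POU3F2: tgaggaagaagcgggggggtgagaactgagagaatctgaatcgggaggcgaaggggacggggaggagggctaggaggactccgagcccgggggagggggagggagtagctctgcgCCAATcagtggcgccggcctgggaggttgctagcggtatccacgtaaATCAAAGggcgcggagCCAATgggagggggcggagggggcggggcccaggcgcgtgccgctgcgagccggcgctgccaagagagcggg
OTX2: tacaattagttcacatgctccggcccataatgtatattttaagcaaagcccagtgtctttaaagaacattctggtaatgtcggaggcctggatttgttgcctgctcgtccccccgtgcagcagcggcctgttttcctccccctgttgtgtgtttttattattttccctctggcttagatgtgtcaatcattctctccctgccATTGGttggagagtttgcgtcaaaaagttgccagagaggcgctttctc

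The windows were searched on both strands for the SOX sequences ACAAAG and ACAATG, the octamer ATGCAAAT bound by POU factors, the OTX sequence TAATCC, the homeodomain sequence TAATTA, and, added after the sequences had been read, ATCAAAG and CCAAT, as above. No match overlapped a match to another motif in the windows shown. POU3F2 held ATCAAAG once, 88 bases before the start site, and CCAAT at 135 and 72 bases before it. ATCAAAG occurred in 2.26% of 35116 RefSeq windows of the same length and CCAAT in 32.0%. The OTX2 window shown held CCAAT in reverse, 48 bases before the start, and the window at the inner OTX2 start held none of the letters searched. Neither of these SOX sequences was found in the POU3F2 or OTX2 windows. Over all windows they occurred in 13.7% (ACAAAG) and 9.29% (ACAATG). Other sequences that SOX factors may bind were not searched for as such, so the windows may hold them. These letters say only what the windows hold. Of the members, 9 had a window in the table and SIX3 was not matched.

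POU3F2, also known as BRN2, encodes a factor of neural progenitors and neurons. It is a gene of 1 exon at chr6:98834592-98839470 on the plus strand (GENCODE 29, GRCh38). Control replicates 1 to 3 had 312, 266 and 295 counts, and SOX2 knockdown replicates 1 to 3 had 802, 1017 and 906, or 9.45, 10.6 and 10.2 against 26.6, 31.5 and 30.3 CPM. Every SOX2 knockdown library lay above every control library, with a gap wider than the range of either group. The mean rose from 10.1 ± 0.590 to 29.4 ± 2.56 CPM (SD, n = 3), a fold of 2.93 (95% interval 2.62 to 3.27). On the log2 scale the change was 1.55 (SE 0.0756; edgeR, Benjamini-Hochberg adjusted p = 5.41e-11).

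**Figure D1:**
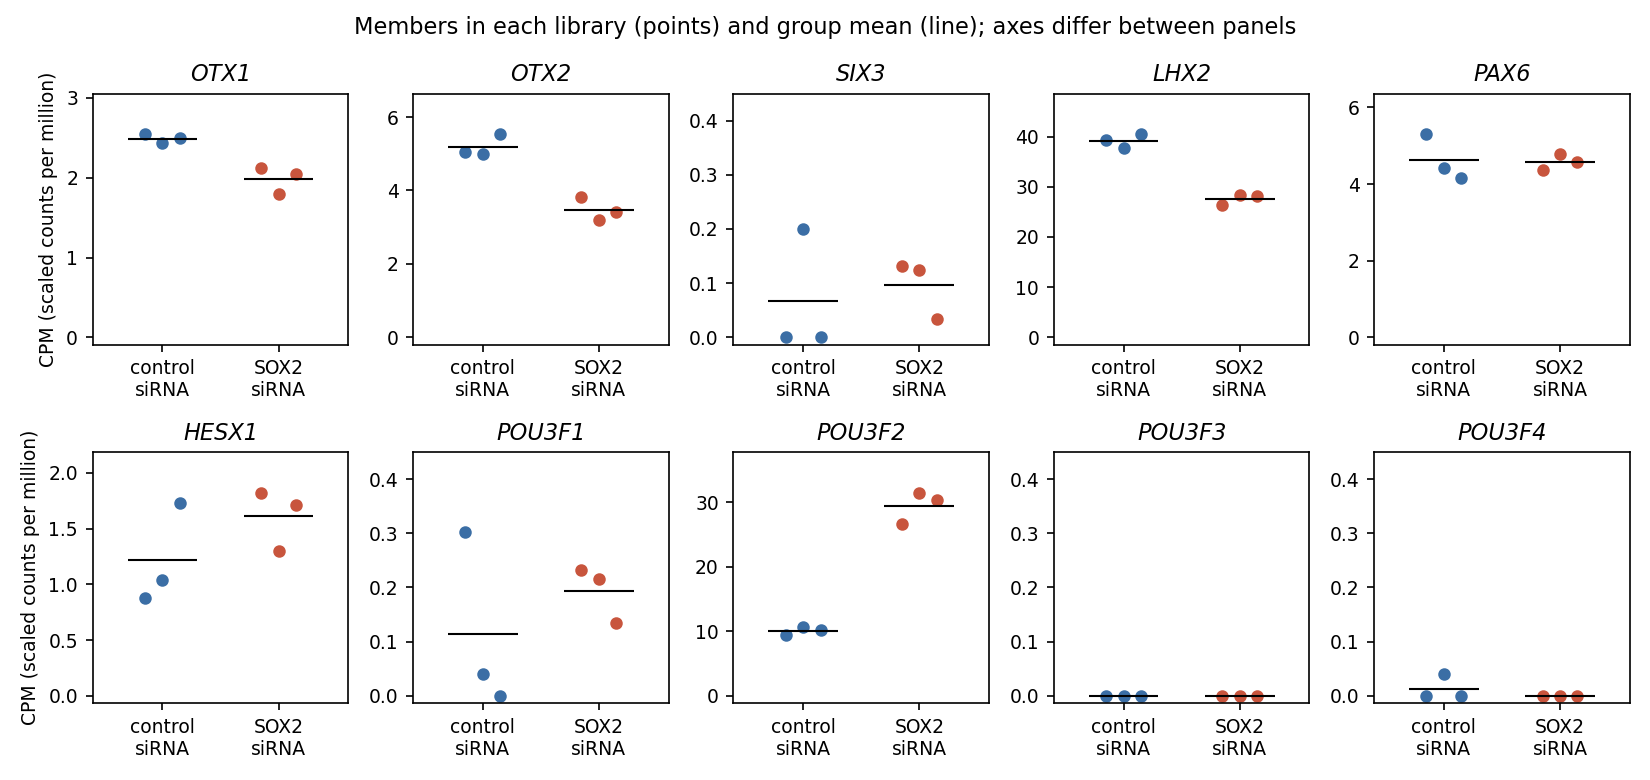
Level of each of the 10 genes in CPM (vertical axis, from 0, with a different range in each panel) in the 3 control siRNA and 3 SOX2 siRNA libraries; points are libraries and lines are group means. POU3F2 is the gene whose SOX2 siRNA libraries all sit above the controls, OTX1, OTX2 and LHX2 are those whose SOX2 siRNA libraries all sit below, and POU3F3 is at 0 throughout.

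The other POU class 3 genes were at or near the floor. POU3F1, also known as OCT6 and active in early neural ectoderm and in Schwann cells, is a gene of 1 exon at chr1:38044611-38046794 (minus strand). It had 10, 1 and 0 counts in control libraries and 7, 7 and 4 in SOX2 knockdown libraries. Control replicate 1 alone carried 10 of the 11 control counts, and the groups overlapped. Summed over libraries, 11 control counts equalled 0.126 CPM (exact Poisson 95% interval 0.0631 to 0.226) and 18 SOX2 knockdown counts 0.195 CPM (0.115 to 0.308), so no difference was detectable at this depth. POU3F4 (1 exon, chrX:83508261-83512127, plus strand), a factor of neural progenitors and the inner ear, had 1 count, in control replicate 2. POU3F3 (1 exon, chr2:104855511-104858574, plus strand), a factor of the upper layers of the cortex, had 0 counts in all 6 libraries. A count of 0 over 3 libraries allows up to 0.0345 CPM in control and 0.0325 CPM in SOX2 knockdown libraries, taking 3 counts per group as a one-sided limit; the exact two-sided interval used above reaches 0.0424 and 0.0399 CPM. These intervals and limits cover counting error only, because PCR reads without molecular identifiers are not independent molecules.

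POU3F2 supplied nearly all measured POU class 3 transcript in both groups. Its share of the 4 genes' summed counts per kilobase was 93.3%, 98.7% and 100% in control libraries and 98.1%, 98.5% and 99.0% in SOX2 knockdown libraries. The groups overlapped, and the means of 97.3% ± 3.54 and 98.5% ± 0.470 (SD, n = 3) did not differ beyond the spread (exact two-sided permutation p = 0.9). Without control replicate 1 the difference of 1.19 percentage points turned to -0.819.

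Within the wider POU family, transcript of POU5F1, the pluripotency factor OCT4, was far more abundant per length than that of POU3F2. The ratio of POU5F1 to POU3F2 in counts per kilobase was 55.2, 44.3 and 51.7 in control libraries and 21.2, 17.7 and 19.7 in SOX2 knockdown libraries. POU3F2 made up 1.67% ± 0.167 of the summed level per length of the 15 POU genes listed in control and 4.33% ± 0.379 in SOX2 knockdown libraries (SD, n = 3; exact two-sided permutation p = 0.1, the smallest that 3 against 3 libraries allow). POU5F1 made up 83.5% ± 1.15 and 84.0% ± 0.720 (exact permutation p = 0.7). Of 4 such shares compared, including that of OTX1 given below, none can pass a threshold of 0.05 at this sample size, and Benjamini-Hochberg adjusted values over the 4 were at least 0.2. Of the 11 POU genes outside class 3, 6 were tested; POU5F1 was slightly higher (log2 fold change 0.17), and 3 were lower, among them POU4F1 and POU2F1 (-1.93 and -0.14), POU2F1 not being called without any 1 of control replicates 2 and 3 and SOX2 siRNA replicates 2 and 3. POU4F1, a factor of sensory neurons, had means of only 0.967 ± 0.138 and 0.249 ± 0.103 CPM (SD, n = 3). POU5F1 and NANOG share sequence with pseudogene copies, so their counts are uncertain to that extent.

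OTX2 and OTX1 encode related homeodomain factors of the anterior brain. OTX2 lies at chr14:56799905-56810479 on the minus strand. It had 167, 125 and 160 counts in control and 115, 103 and 102 in SOX2 knockdown libraries, or 5.06, 4.99 and 5.53 against 3.81, 3.19 and 3.41 CPM. The groups did not overlap. OTX2 fell by 0.58 on the log2 scale (SE 0.125; edgeR, Benjamini-Hochberg adjusted p = 0.00184), to 66.8% of the control mean.

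OTX1, at chr2:63050057-63057836 on the plus strand, had 84, 61 and 72 counts in control and 64, 58 and 61 in SOX2 knockdown libraries, or 2.55, 2.43 and 2.49 against 2.12, 1.79 and 2.04 CPM. Every SOX2 knockdown library was again below every control library, but the difference was not called. Its log2 fold change was -0.33 (95% interval -0.67 to 0.017; edgeR adjusted p = 0.154), so neither no change nor a fall as large as that of OTX2 lies outside the interval. Groups without overlap were found for OTX1, OTX2, LHX2 and POU3F2 among the 6 tested members, and for 41.8% of all tested genes.

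Within the pair, the share of OTX1 per length was higher in every SOX2 knockdown library than in any control library. Its share of the summed OTX1 and OTX2 counts per kilobase was 25.4%, 24.8% and 23.4% in control and 27.4%, 27.6% and 28.8% in SOX2 knockdown libraries. The means were 24.5% ± 1.06 and 27.9% ± 0.780 (SD, n = 3), and the exact two-sided permutation p was 0.1, the smallest this design allows.

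LHX2, a LIM homeodomain factor of the eye field and cortex, was the most abundant member in both groups. It lies at chr9:124001670-124033301 on the plus strand. Its counts were 1299, 946 and 1170 in control and 797, 916 and 841 in SOX2 knockdown libraries, or 39.4, 37.8 and 40.5 against 26.4, 28.3 and 28.2 CPM. The groups were well apart and each was tight. The means were 39.2 ± 1.36 and 27.6 ± 1.07 CPM (SD, n = 3). LHX2 fell by 0.51 on the log2 scale (SE 0.0521; edgeR, Benjamini-Hochberg adjusted p = 9.44e-07).

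PAX6, a paired-domain and homeodomain factor of eye and forebrain, lies at chr11:31784779-31818062 on the minus strand. It had 175, 111 and 120 counts in control and 132, 155 and 137 in SOX2 knockdown libraries, or 5.30, 4.43 and 4.15 against 4.37, 4.79 and 4.59 CPM. The groups overlapped, with the highest and the lowest value both in control libraries. The log2 fold change was -0.018 (95% interval -0.28 to 0.25; edgeR adjusted p = 0.941), a fold of 0.822 to 1.19. Exons of PAX6 overlap those of ELP4 on the opposite strand over 5241 bases, and the use of strand in counting is not given in the sources used here. ELP4 itself had 473 to 606 counts per library and was not called (-0.17; edgeR adjusted p = 0.0868), although without control replicate 1 it was called lower (-0.24; edgeR adjusted p = 0.0324).

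HESX1, a homeodomain repressor of the anterior neural plate and pituitary, lies at chr3:57197838-57227606 on the minus strand. It had 29, 26 and 50 counts in control and 55, 42 and 51 in SOX2 knockdown libraries. Control replicate 3 lay among the SOX2 knockdown libraries, and the other controls lay below them. The log2 fold change was 0.40 (95% interval -0.13 to 0.94; edgeR adjusted p = 0.267) and became 0.75 without control replicate 3 (edgeR adjusted p = 0.0533). SIX3, which represses Wnt signalling in the eye field, lies at chr2:44941898-44946077 on the plus strand and was not tested. It had 0, 5 and 0 counts in control and 4, 4 and 1 in SOX2 knockdown libraries, or 0.0575 CPM (exact Poisson 95% interval 0.0187 to 0.134) and 0.0974 CPM (0.0445 to 0.185) over each group, and the groups overlapped.

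**Figure D2:**
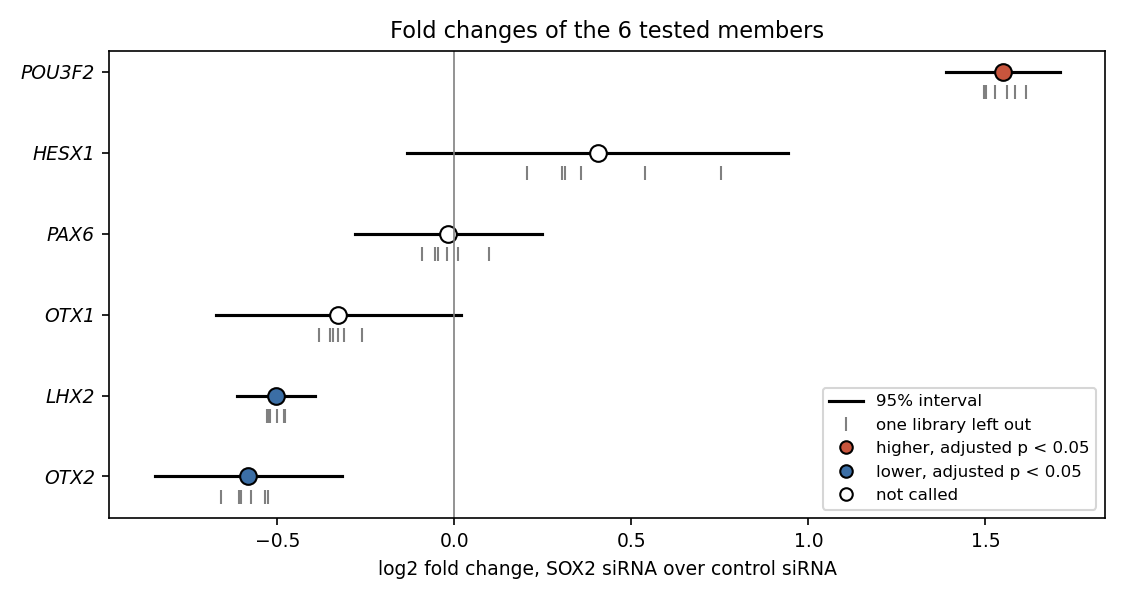
Log2 fold change of SOX2 siRNA over control siRNA (horizontal axis) for the 6 tested genes, with the 95% interval from the edgeR fit as a line and the value with each library left out in turn as grey ticks; red and blue circles had an adjusted p under 0.05 (higher and lower) and white circles did not. The interval of POU3F2 runs from 1.39 to 1.71, those of LHX2 and OTX2 stay below 0, and those of OTX1, PAX6 and HESX1 include 0.

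Absolute levels were compared between genes as counts per kilobase of merged GENCODE 29 exons, scaled as CPM (level per length). In control libraries the order was LHX2 at 14.8, POU3F2 at 2.07, OTX2 at 1.59, HESX1 at 0.814, OTX1 at 0.515 and PAX6 at 0.222. No neighbours in this order overlapped, with 3 libraries each, although the HESX1 libraries ranged from 0.589 to 1.16. After SOX2 siRNA the levels per length were 10.4 for LHX2, 6.04 for POU3F2, 1.08 for HESX1, 1.06 for OTX2, 0.411 for OTX1 and 0.220 for PAX6. There HESX1 and OTX2 overlapped and the other neighbours did not.

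Below these genes, POU3F1, SIX3, POU3F4 and POU3F3 had mean levels per length of 0.0523, 0.0264, 0.00344 and 0 in control libraries and each overlapped the next. After SOX2 siRNA, POU3F1 was at 0.0889 and SIX3 at 0.0383 without overlap, and both other genes were at 0. That gap between POU3F1 and SIX3 rests on 7, 7 and 4 counts against 4, 4 and 1. The lowest POU3F1 library and the highest SIX3 libraries had 4 counts each, so there it comes mainly from the length used. The length used changed some levels and overlaps but not the order of the means. With the longest annotated transcript in place of merged exons, PAX6 was at 0.635 in control and 0.629 in SOX2 knockdown libraries and OTX1 at 0.870 and 0.694, so that HESX1 and OTX1 overlapped in control libraries, and OTX1 and PAX6 after SOX2 siRNA.

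On the scale of the whole transcriptome, LHX2 was well expressed, exceeding 82.1% of tested genes with a known length in control and 74.2% in SOX2 knockdown libraries. POU3F2 went from above 37.5% of them to above 60.5%, crossing the median level per length of 3.83 in control and 3.86 in SOX2 knockdown libraries. OTX2 exceeded 32.9% and 27.0%, HESX1 22.8% and 27.2%, OTX1 16.8% and 14.4%, and PAX6 7.84% and 8.18%. All these ranks use merged exons and were not computed with the longest transcript. For PAX6 the 2 lengths are far apart, at 20812 and 7290 bases, so its low rank depends on that choice. SOX2 was at 101.6 in control and 20.9 in SOX2 knockdown libraries by the same measure. The LHX2 level was 7.65, 6.54 and 7.29 times that of POU3F2 in control libraries and 1.83, 1.66 and 1.71 times in SOX2 knockdown libraries. Likewise, the SOX2 level was 50.4, 48.5 and 48.7 times that of POU3F2 in control libraries and 3.79, 3.39 and 3.24 times after SOX2 siRNA.

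**Figure D3:**
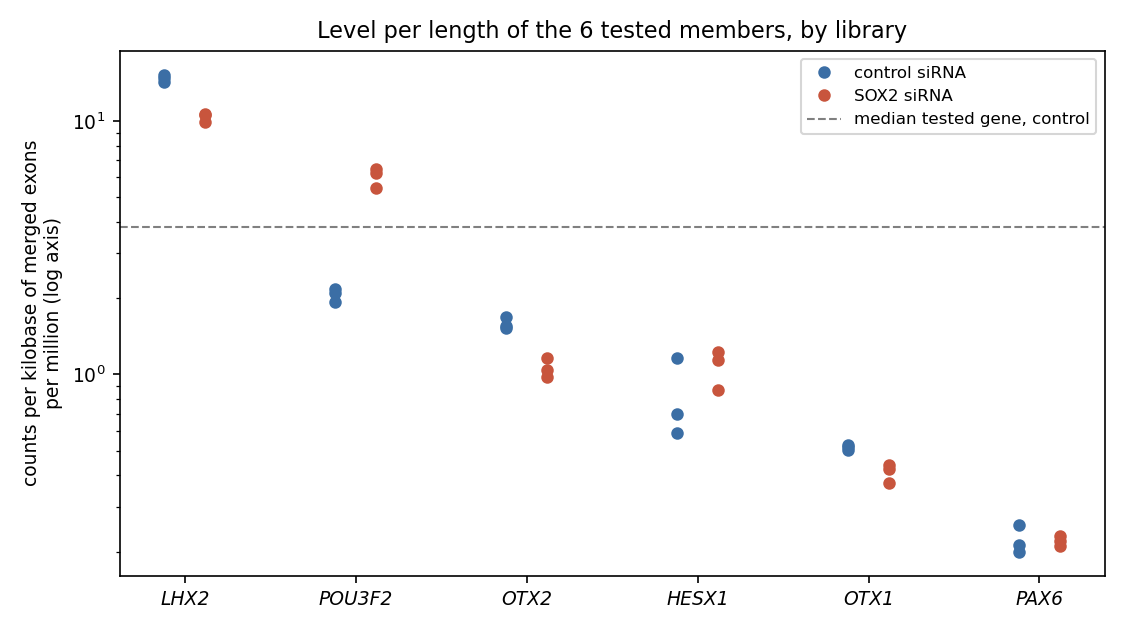
Level per length (CPM per kilobase of merged exons, log axis) of the 6 tested genes in each control siRNA and SOX2 siRNA library; the dashed line is the median of tested genes in control libraries, 3.83. POU3F2 is below that line in all control libraries and above it in all SOX2 siRNA libraries, while LHX2 stays above it in both groups.

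Genes that neighbour the members were examined next, taking annotated genes within 20 kb that had counts. No neighbour of POU3F2 was expressed at a measurable level; the non-coding AL589826.2, which lies 2084 bases away on the opposite strand, had 0 counts in control and 1, 2 and 1 in SOX2 knockdown libraries. OTX2-AS1 had 1, 1 and 3 counts in control and 2, 2 and 0 in SOX2 knockdown libraries, and PANTR1, beside POU3F3, had 1 count in all. The antisense RNA AC006450.3, whose span overlaps that of LHX2 without exon overlap, had low counts, with 13, 16 and 12 counts in control and 6, 9 and 3 in SOX2 knockdown libraries (log2 fold change -1.27; edgeR adjusted p = 0.0323). Its call was lost without any 1 of 5 libraries, all but SOX2 siRNA replicate 2, with values from -1.41 to -0.98 and edgeR adjusted p up to 0.156, and by DESeq2 (adjusted p = 0.162). EHBP1, next to OTX1, was slightly lower (-0.21; edgeR adjusted p = 0.00479), and APPL1, which lies 120 bases from HESX1 on the opposite strand, was slightly higher (0.12; edgeR adjusted p = 0.0435), a call lost under 10 of 15 alternatives, 5 of them leaving out 1 library other than control replicate 3. AL035078.4, overlapping PAX6, and UTP11, near POU3F1, were not called (-0.32 and -0.11; edgeR adjusted p = 0.186 and 0.0720), although AL035078.4 was called lower without control replicate 3. The other neighbours AC006450.1, AC007098.1, RN7SL461P, PAUPAR, AC018730.1, AC012354.1 and LINC01833 had between 0 and 6 counts in every library.

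The genes most like POU3F2 over the 6 libraries, by the root mean square difference of log2 CPM centred on each gene's mean, were MYH15 (0.0572), LGI1 (0.0608) and CLSTN2 (0.0638). Their mean CPM went from 4.31 to 12.4, from 9.96 to 27.9 and from 0.231 to 0.757. These 6 libraries fall into 2 groups, so a small difference asks above all for a fold change of similar size.

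Other transcription factors of the anterior neural plate and forebrain also moved in both directions. Of 28 listed, 11 were tested, 6 were higher, 3 were lower and 2 were not called, with a median log2 fold change of 0.26. SP8, a factor of the anterior patterning centre, fell by 1.75, with means of 12.6 ± 0.448 and 3.74 ± 0.0305 CPM (SD, n = 3; edgeR adjusted p = 1.26e-10). DLX6, a factor of ventral forebrain and craniofacial tissue, fell by 1.32, while DLX1 rose by 1.26, both on the log2 scale. NR2F1, a nuclear receptor that patterns the cortex, rose by 0.78, with means of 89.8 ± 3.36 and 154.5 ± 8.82 CPM (SD, n = 3; edgeR adjusted p = 5.19e-10). Classic eye field and forebrain genes were nearly silent: 14 of the 28 had at most 3 counts in every library, among them RAX, SIX6, EMX1, FEZF2 and NKX2-1, named after their values were seen.

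Relatives of the homeobox and PAX members gave 4 higher, 1 lower and 8 not called among 13 tested of 22 listed, with a median of 0.27. SIX4, a factor of placodes and muscle, rose by 0.50, ISL2 by 0.70, and LMX1B fell by 1.12 on the log2 scale; ISL2 and LMX1B were not called by DESeq2 (adjusted p = 0.056 and 0.0572). Genes of midbrain, hindbrain and caudal identity gave 7 lower, 3 higher and 2 not called among 12 tested of 20, with a median of -0.31. GBX2, CDX2 and MEIS1 fell by 0.81, 1.54 and 1.05. FGF8, a signal of the boundary between midbrain and hindbrain among other places, rose by 2.67, with means of 0.397 ± 0.119 and 2.57 ± 0.213 CPM (SD, n = 3, edgeR adjusted p = 1.97e-07). WNT1, on the same list, fell by 1.86, from a mean of 1.64 to 0.450 CPM, and EN1 had 0 counts.

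Among 16 general neural progenitor genes, 13 were tested, 7 were lower, 1 was higher and 5 were not called, with a median of -0.24. Without control replicate 3 or without SOX2 siRNA replicate 2, 4 were lower, and the 1 call higher was lost without any 1 of 5 libraries, all but SOX2 siRNA replicate 3. SOX21 fell by 3.03, ZIC2 by 0.86, the intermediate filament gene NES by 0.59 and PROM1 by 0.25 on the log2 scale. SOX1, which marks committed neural ectoderm, had 0 counts in all libraries.

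Neuronal differentiation genes were mostly absent beside the rise of POU3F2. Of 23 listed, 14 had at most 3 counts in every library and 5 were tested, of which 3 were higher, 1 lower and 1 not called. MAP2 fell by 0.91, TUBB3 rose by 0.74, and EBF2 and EBF3 rose by 3.24 and 2.28 from 0.193 ± 0.110 and 0.141 ± 0.126 CPM (SD, n = 3). The median log2 fold change of the 5 tested genes was 0.74. The summed level of the 23 genes was 159.7 to 173.3 CPM in control and 124.2 to 124.8 CPM in SOX2 knockdown libraries. Most of that sum was MAP2, with means of 131.6 and 69.9 CPM, and TUBB3, with 28.9 and 48.5 CPM. Its fall thus reflects MAP2 and not the list as a whole.

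Markers of other lineages moved with the same comparison. Of 12 mesendoderm genes, 7 were tested, 6 were higher and none was lower, with a median log2 fold change of 1.63 and a summed level of 20.6 to 22.5 CPM in control and 79.98 to 90.01 CPM after SOX2 siRNA. EOMES, CER1 and MIXL1, genes of early mesendoderm, rose by 2.92, 2.51 and 2.26, and GATA4 rose from 6.58 to 13.2 CPM. In contrast, TBXT had 0 counts and GSC and SOX17 at most 2 counts in any library. Of 12 surface ectoderm and placode genes, 8 were tested, 3 were higher, 1 lower and 4 not called; KRT18 and KRT8 rose by 0.49 and 0.42 and TFAP2A fell by 0.43. The part of these markers in the changes of POU3F2, LHX2 and OTX2 was not tested.

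**Figure D4:**
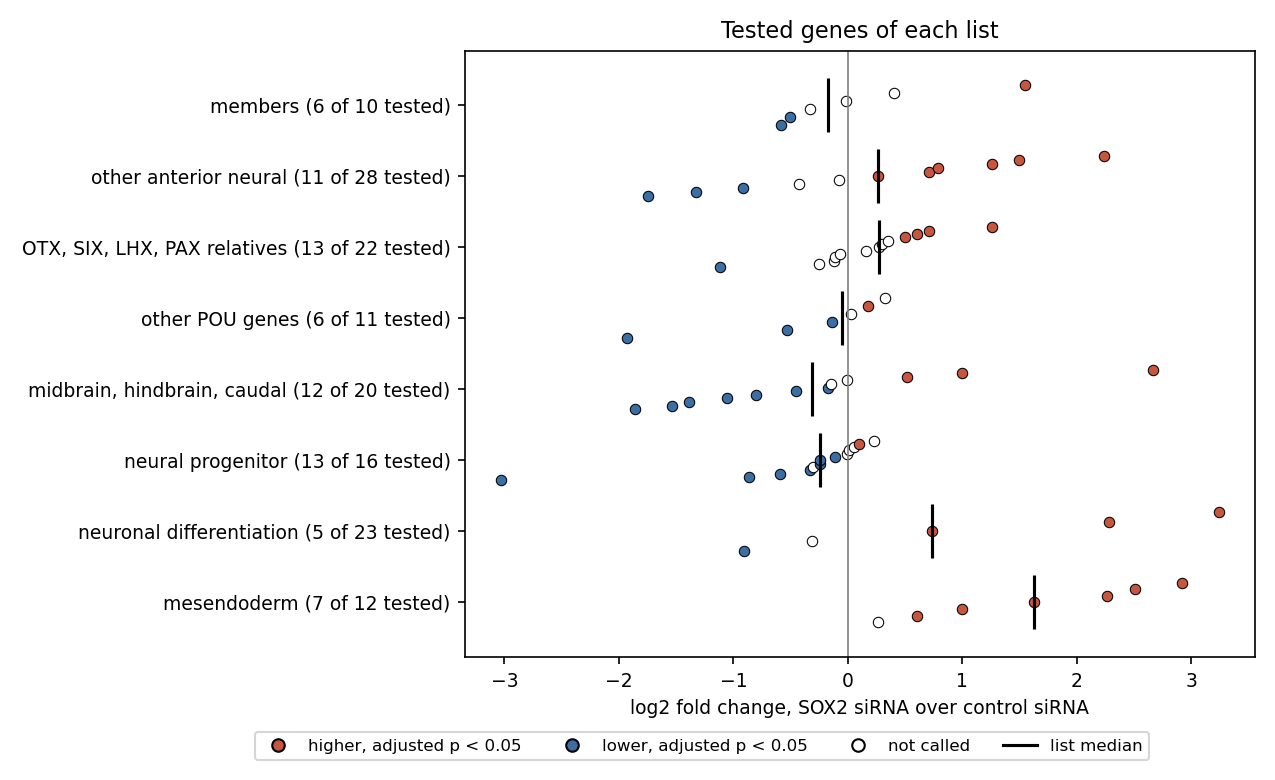
Log2 fold change of SOX2 siRNA over control siRNA (horizontal axis) for each tested gene of 8 lists; red and blue points had an adjusted p under 0.05 (higher and lower), white points were not called, and vertical bars are list medians. The members and the other anterior neural genes spread to both sides of 0, while all 7 tested mesendoderm genes lie to the right.

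Exons of several genes named here overlap exons on the opposite strand, which leaves their counts uncertain while the use of strand is not known: POU5F1, POU4F1, NR2F1, GBX2, MEIS1, ISL2, EBF3, TFAP2A, SOX10, LIN28B, KRT8, KRT18, LGI1, POU3F4 and PAX6. LHX2 has such an overlap of 105 bases, with AC006450.2. TUBB3, PROM1 and LGI1 overlap another gene on their own strand. POU3F2, OTX1, OTX2, HESX1, SIX3, POU3F1 and POU3F3 had no exon overlap in GENCODE 29.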

How the data were processed

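The authors deposited raw counts of reads by gene symbol for each library; totals differ and all values are whole. Per the submitters' processing notes, bcl2fastq 2.20.0, STAR 2.7.3a, Salmon 0.14.1, DESeq2 1.28.1 and the build GRCh38.p13 were used; their roles, the use of strand and the annotation are not given in the sources used here. Per the labels' protocols, Trizol RNA was turned into libraries with the KAPA mRNA HyperPrep kit. Columns were matched to libraries by their descriptions.

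From the counts, genes were kept by filterByExpr (minimum count 10), scaled by TMM and tested with edgeR 4.0.16 (quasi-likelihood, robust, on group) in R 4.3.3, calling genes at a Benjamini-Hochberg adjusted p under 0.05 over all those tested. DESeq2 1.42.0 and limma 3.58.1 (voom) were alternatives; figures used matplotlib 3.10.9. The procedure was tested on simulated data. Single values were compared by exact permutation of 3 against 3 libraries. Lengths, coordinates and overlaps are from GENCODE 29, which matched 96.4% of tested genes by symbol and need not be the authors' annotation.

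Named were SOX2, all members, the called genes with the 4 smallest p-values of each list, neighbours within 20 kb, and the 3 genes most like any called member with an absolute log2 fold change of at least 1; genes outside this rule named here were chosen after their values were seen, and some genes that meet it are not reported here. The members and lists were chosen with earlier results of these data known. Alternatives were other scalings, filters and tests, the replicate number as a block, each library left out, and another length; POU shares over the whole family were added after seeing the data. No library was left out of the reported values.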

Additional observations from a re-analysis of the deposited data

How the results depend on the processing

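The count of called genes ranged from 3760, without SOX2 siRNA replicate 2, to 5212, with no low-count filter, against 4964. Under each of the 15 alternatives POU3F2 was called higher and LHX2 and OTX2 lower, with log2 fold changes of 1.496 to 1.62, -0.53 to -0.48 and -0.66 to -0.53; the highest edgeR, DESeq2 or limma adjusted p-values were 3.17e-07, 2.92e-05 and 0.0147. OTX1 ranged from -0.38 to -0.26 and HESX1 from 0.20 to 0.75, neither called under any. PAX6 turned to 0.098 without control replicate 1 and to 0.011 without SOX2 siRNA replicate 1; it was not called in either, and with single libraries left out it ranged from -0.091 to 0.098. The difference in the POU3F2 share of POU class 3 level ranged from -0.819 to 2.52 percentage points as single libraries were left out, negative without control replicate 1, which holds 10 of the 11 control counts of POU3F1. The difference in the POU5F1 share of all POU genes, 0.5 points, ranged from -0.147 (without control replicate 2) to 0.958 in the same way and was 3.76 points with raw counts in place of counts per kilobase; that of POU3F2, 2.66 points, was 3.12 with raw counts and 2.14 with the longest transcript. SOX2 stayed between -2.32 and -2.25.

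Adding the replicate block (the number as a term) gave 5177 called genes, and POU3F2, LHX2 and OTX2 had log2 fold changes of 1.54, -0.51 and -0.58; it changed no call of a member. Same-numbered libraries deviated with correlations of 0.160, -0.0334 and 0.0554 across genes. Pairs with different numbers gave -0.189 to 0.142, so these values cannot show whether the replicates were paired. Of 46 other called genes (those of the naming rule and NANOG), 40 were called under every alternative that gave a value and 6 lost the call under some (COL1A1, LMX1B, ISL2, POU2F1, APPL1 and AC006450.3); these alternatives were chosen after seeing the data. Depth limits SIX3, POU3F1, POU3F3 and POU3F4, for which no fold is given.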
